A study of Homo sapiens with 9 samples.

Results

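The carbonyl and aldo-keto reductases described here are 10 genes taken by name from a table of 57773 features: CBR1, CBR3, CBR4, AKR1A1, AKR1B1, AKR1B10, AKR1C1, AKR1C2, AKR1C3 and NQO1. All 10 were found. The genes were chosen by name, and the group was selected on the measured signal of CBR1, which is near 0 in the knockout libraries, so the levels of these genes in knockout and control cells are given as a description. Counts of members called in the fit over all genes stand beside the share of all genes called, and nothing is read from them. The 9 RNA libraries came from ACHN, a widely used human line grown from a renal cell carcinoma. The sgControl cells carried a control guide, and in KO#1 and KO#2 cells ELOVL5, an elongase of polyunsaturated fatty acids, was targeted by Cas9 with 1 of 2 independent guides. Each group had 3 libraries, and no other treatment is named for any of them. Whether the knockout cells were clones or pools, and whether the libraries of a group came from separate cultures, is not stated in the labels, so a p here speaks to the spread among these libraries alone, which may be technical. Replicate numbers only name the libraries.

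Reductases of these families take electrons from NADPH or NADH and turn reactive carbonyls or quinones into alcohols or hydroquinones, which are easier to conjugate and export. The carbonyl reductases belong to the short-chain dehydrogenases, and the aldo-keto reductases form a separate fold with overlapping substrates. NQO1 is a flavoprotein that reduces quinones by transferring electrons as a pair. In kidney these enzymes handle lipid aldehydes, sugars, prostaglandins, steroids and drugs, and several of them are known targets of NRF2, the transcription factor of the antioxidant response.

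The values are a signal, namely read counts that the authors had quantile-normalized, so that every library has the same total of 8625043.6. The reads behind low values could still be read from the order of equal values in the table, up to a signal of 356. A signal of 100 stood for 79 to 145 reads in 8 libraries and for 16 reads in KO#2 replicate 1. That library also correlated across genes with the rest of its group at 0.672 and 0.737, against 0.937 to 0.978 within groups elsewhere, so log2 fold changes of KO#2 are also given without it for the members other than CBR1 and for the named genes of the pathway lists. ELOVL5 itself had signals of 1999, 2713 and 2063 for sgControl, 805, 1345 and 1016 for KO#1, then 434, 1805 and 910 for KO#2. Every knockout library lay below every control library, as in 5.9% of tested genes. The difference did not pass the test (limma adjusted p = 0.383 and 0.24). It passed for KO#1 when KO#2 replicate 1 was left out of the fit (limma adjusted p = 0.0314, against 0.162 for KO#2). The keratins KRT8 and KRT18 and the renal factors PAX8 and PAX2 were present in all libraries. So were the mesenchymal genes VIM and CDH2. In sgControl, KO#1 and KO#2 the means of VIM were 9340, 10881 and 7493, and those of CDH2 949, 1522 and 896. The kidney cadherin gene CDH16 had 653, 181 and 369 in sgControl, 38.0, 19.4 and 43.8 in KO#1, and 542 in KO#2 replicate 1 against 56.1 and 53.3 in the other KO#2 libraries, while the proximal tubule receptor gene LRP2 was listed at 0 in all. Of 12 markers of other cell types in the table, 5 were at 0 throughout. The summed signal of the 12 was 30.4 to 51.1 in sgControl, 13.7 to 17.9 in KO#1, and 6.33, 17.0 and, in KO#2 replicate 1, 144, most of it GFAP at 100.3; the part of these markers in the results was not tested. EPCAM, an epithelial adhesion gene, had 4.89 to 5.0 in sgControl and 43.4 to 349 in the knockout libraries.

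Levels of different genes were compared as signal per kilobase of exon, with exon lengths from GENCODE 29. In sgControl cells AKR1B1, the aldose reductase, was the most abundant of the 10 (2126 ± 361 per kilobase, SD, n = 3), followed by NQO1 (889 ± 294). AKR1A1, the aldehyde reductase, was next with 176 ± 28.5. These top members did not overlap in any control library. CBR1 (39.0 ± 8.34), CBR4 (38.3 ± 8.69) and AKR1C3 (32.4 ± 18.5) could not be ordered, since the ranges of their libraries overlap, and CBR3 (15.7 ± 4.19) overlapped AKR1C3. AKR1B10 (1.13 ± 0.619), AKR1C1 (0.647 ± 0.171) and AKR1C2 (0.178 ± 0.308) were lowest, and their ranges overlap. In the knockout groups AKR1B1 and NQO1 had 1463 and 1580 per kilobase in KO#1, and 1354 and 1276 in KO#2.

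**Figure D1:**
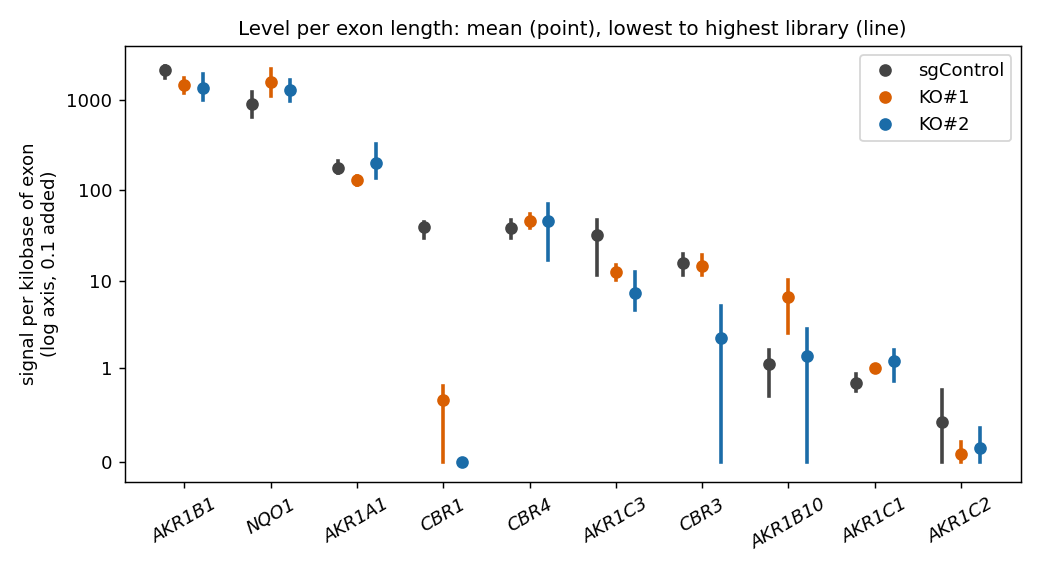
Signal per kilobase of exon (log axis, 0.1 added) of the 10 reductase genes, ordered by their sgControl level. Points are group means of 3 libraries and lines run from the lowest to the highest library; AKR1B1 leads in sgControl at 2126, and CBR1 leaves the middle of the range in both knockout groups.

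CBR1 encodes a monomeric carbonyl reductase that acts on quinones, prostaglandin E and anthracycline drugs. Its signal was 71.9, 108 and 106 across the 3 control libraries. It was 1.44, 1.44 and 0 across KO#1, and 0, 0 and 0 across KO#2. The control libraries were all high, and all 6 knockout libraries were at or near 0. Among all 12985 tested genes 5.9% were likewise lower in all 6 knockout libraries than in every sgControl library, and 6.61% were higher. In bulk RNA, fewer cells that express a gene and less RNA per cell cannot be told apart.

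The reads behind these values were 58, 149 and 93 in sgControl, and 2, 2 and 0 in KO#1. At the sgControl level 114, 112 and 138 reads would have stood in the KO#1 libraries at their depth. Summed over the group and divided by depth, CBR1 was 94.6-fold lower in KO#1, with an exact 95% interval of 36.6 to 350.0 that covers counting error only. KO#2 had 0 reads in every library, where 15.3, 76.4 and 115 would have stood at the sgControl level. With 3 reads over the group put in place of 0 as a floor, CBR1 was 71.9-fold lower in KO#2. That value has no interval, and covers neither counting error in the sgControl reads nor spread between libraries. The 0 of KO#2 replicate 1 is the coarsest of the KO#2 values, as 3 reads there have a mean signal of 13.1. That signal still lies under the lowest control signal of CBR1, 71.9.

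The start of CBR1 lies on chromosome 21. The 250 bases before it in RefSeq, at chr21:36069774-36070023 of GRCh38.p14 on the plus strand, are shown because CBR1 is the member that went from present to near absent. Capitals mark the match to TGACNNNGC, the core of the antioxidant response element, found on the opposite strand and beginning 159 bases before the start.
CBR1: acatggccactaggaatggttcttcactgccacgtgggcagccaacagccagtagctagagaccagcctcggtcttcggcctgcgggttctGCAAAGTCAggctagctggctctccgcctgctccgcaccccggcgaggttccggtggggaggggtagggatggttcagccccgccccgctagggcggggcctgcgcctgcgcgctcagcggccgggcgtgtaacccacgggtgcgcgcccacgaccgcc
Of 8 members with a promoter window (10 windows of 300 bases, from 250 before to 50 after a start), CBR1 had the motif in its window and the other 7 genes had no match on either strand. The motif is found in 13.3% of all 35116 such windows. The CBR1 window holds 27 CpG pairs, more than 71.8% of windows. NQO1 had 14, CBR4 had 31, AKR1A1 had 21, AKR1B1 had 33 and 18, AKR1C1 and AKR1C2 had 3 each and AKR1C3 had 0 in each of its windows, where the median of all windows is 14. A match is a description of the letters only, and a window without one says nothing of the factor.

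Genes on each side of CBR1 were present in all groups. SETD4, a methyltransferase gene and the nearest tested gene on one side, had signals of 74.7, 72.9 and 69.9 for sgControl, 114, 106 and 91.9 for KO#1, then 203, 129.8 and 99.4 for KO#2. All its knockout libraries were above the controls, as in 6.61% of tested genes. CBR3-AS1, a non-coding gene and the nearest tested gene outside the family on the other side, had 25.8, 17.9 and 25.4 in sgControl, 32.7, 38.0 and 52.7 in KO#1 and 64.1, 14.3 and 32.2 in KO#2. RCAN1, a calcineurin regulator, was also higher in all knockout libraries, as in the same 6.61% of tested genes (log2 fold change 1.44 with KO#1 and 0.64 with KO#2). RUNX1, SMIM11, MRPS6, DOPEY2, MORC3, CHAF1B and SIM2 overlapped between the groups. Over the 10 nearest tested genes, 5 on each side, log2 fold changes ran from 0.0057 to 1.44 with KO#1 (median 0.19) and from −0.34 to 0.92 with KO#2 (median 0.44).

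**Figure D2:**
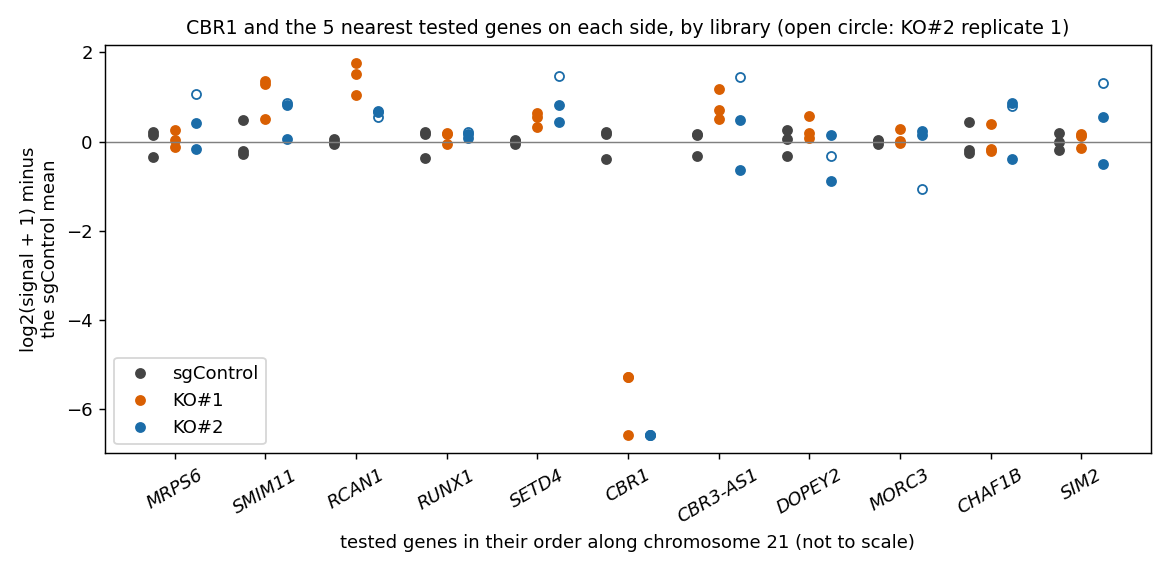
Log2(signal + 1) minus the sgControl mean for CBR1 and the 5 nearest tested genes on each side, in RefSeq order along chromosome 21 and not to scale. Each point is 1 library and the open circle is KO#2 replicate 1; the knockout libraries fall far below the controls at CBR1 and lie near or above them at SETD4 and RCAN1.

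The likeness of other genes to CBR1 was measured as Pearson's r of log2(signal + 1) over the 9 libraries, which share their groups. Of 12976 tested genes outside the family, STOM (r = 0.987), NR5A2 (0.984), SALL1 (0.982) and FBXL7 (0.976) were the closest. SALL1, a zinc finger gene of kidney development, had 117, 96.0 and 90.8 in sgControl and was listed at 0 in all knockout libraries. FBXL7, an F-box gene, had 341, 310.1 and 269.6 in sgControl and at most 1.00 in any knockout library. STOM, which encodes the membrane protein stomatin, kept more of its signal, with means of 338 ± 43.7 in sgControl, 105 ± 23.4 in KO#1 and 91.3 ± 7.18 in KO#2 (SD, n = 3). Besides CBR1 itself, SALL1 and FBXL7 are the 2 tested genes with at least 71.9 in each sgControl library and at most 1.44 in each knockout library, the limits that CBR1 sets.

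CBR3 encodes the closest relative of CBR1 and has a narrower known range of substrates. Its signal was 13.3, 18.7 and 23.1 for sgControl and 15.0, 22.3 and 13.6 for KO#1, against 0, 6.11 and 1.78 for KO#2. The KO#1 libraries lay within the range of the controls. The KO#2 libraries were the lowest 3, below both other groups, as were 8.34% of tested genes against sgControl and 4.49% against KO#1. The reads were 11, 24 and 19, then 19, 26 and 20, and in KO#2 0, 5 and 3, where 2.94, 14.7 and 22.2 would have stood at the sgControl level. Against sgControl the log2 fold change was −0.11 for KO#1 and −2.81 for KO#2, each with an SE of 0.73; leaving out KO#2 replicate 1 gave −2.09 (SE 0.514).

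The difference between the knockout groups was largest for CBR3 among the 6 tested members other than CBR1. KO#2 was lower than KO#1 by a log2 fold change of −2.70 (SE 0.73, 95% interval −4.32 to −1.08 before adjustment). It was lower in 3 of 3 libraries and did not pass the test over all genes (limma, Benjamini-Hochberg adjusted p = 0.748, and 0.405 without KO#2 replicate 1). CBR3 shares 42.2% of its exon bases with CBR3-AS1 on the opposite strand in GENCODE 29. CBR1 shares 18.9% of its exon bases with another gene on the opposite strand. The strand setting of the authors' counting is not given in the sources used here, so reads of either pair may not be separable. Between CBR1 and CBR3, 20 of the 36-base words (the read length) of their transcripts are shared, which is 0.807% of the words of CBR1 and 1.76% of those of CBR3.

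CBR4, a mitochondrial reductase with a part in fatty acid synthesis there, had 151.8, 194 and 241 in sgControl, 220.4, 198 and 282 in KO#1 and 85.8, 251 and 358 in KO#2. Its groups overlap, and its lowest value, in KO#2 replicate 1, rests on 14 reads. On the log2 scale KO#1 stood 0.26 from sgControl and KO#2 0.04 (each SE 0.495); leaving that library out gave 0.64 (SE 0.279) for KO#2.

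**Figure D3:**
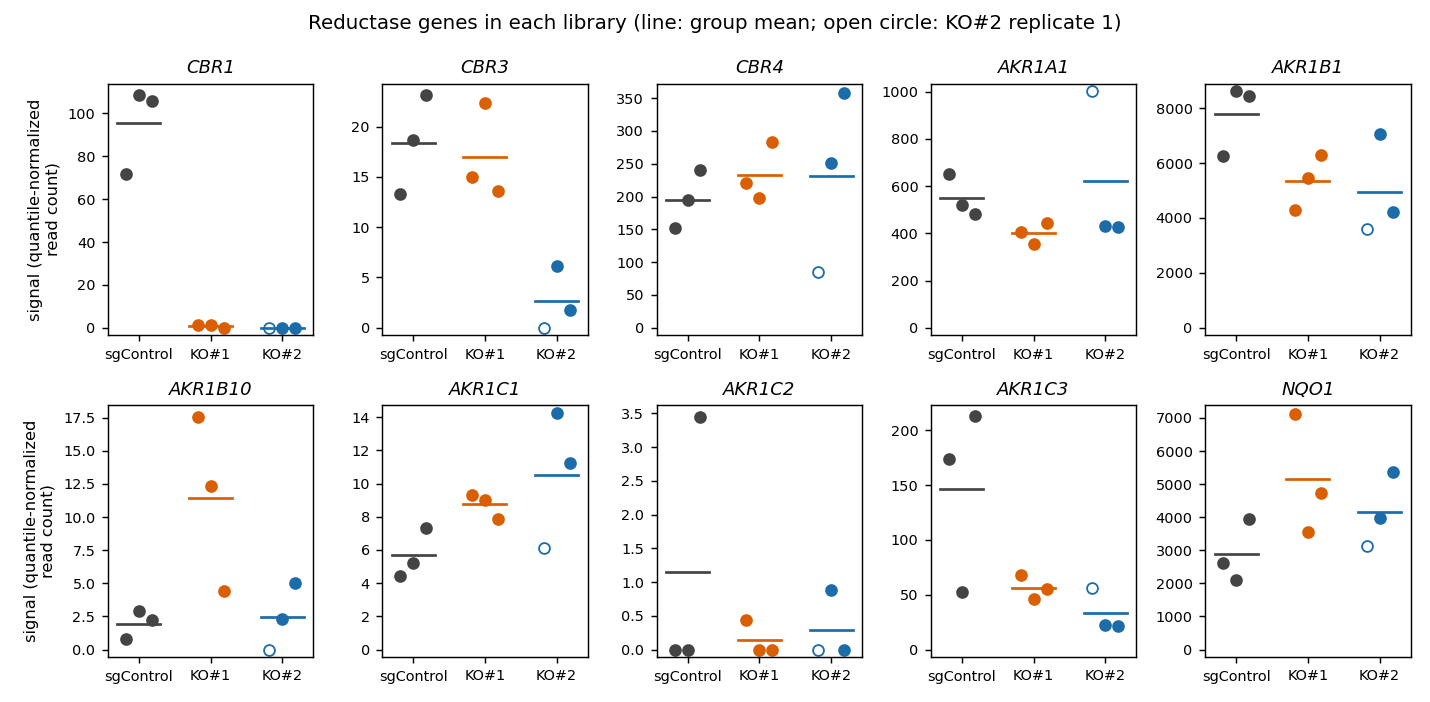
Signal (quantile-normalized read count) of the 10 reductase genes in each of the 9 libraries, on linear axes. Points are libraries, lines are group means and the open circle is KO#2 replicate 1; CBR1 goes from 71.9 to 108 in sgControl to at most 1.44 in the knockouts, and CBR3 is low in KO#2 at 0 to 6.11.

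AKR1B1, the aldose reductase, opens the polyol pathway by reducing glucose to sorbitol and also reduces lipid aldehydes. Signals were 6262, 8641 and 8442 for sgControl, 4303, 5456 and 6304 for KO#1, then 3596, 7045 and 4225 for KO#2. The lowest control library lay below 1 library of each knockout group, so the groups overlap although both knockout means are lower. Log2 fold changes were −0.54 for KO#1 and −0.70 for KO#2, each with an SE of 0.328, and −0.50 for KO#2 with KO#2 replicate 1 left out.

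AKR1A1, which reduces many short aldehydes, had 651, 521 and 481 in sgControl, 406, 356 and 444 in KO#1 and 1002, 433 and 427 in KO#2. The 3 KO#1 values were under every control value, as in 15.9% of tested genes, and so were the KO#2 values other than that of KO#2 replicate 1, which was the highest of the 9. On the log2 scale KO#1 stood −0.45 from sgControl (SE 0.372). KO#2 stood 0.06 from it (SE 0.372), which turned to −0.35 (SE 0.208) without KO#2 replicate 1.

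NQO1, the quinone reductase, had 2623, 2101 and 3955 in sgControl, 7129, 3564 and 4733 in KO#1 and 3127, 3962 and 5368 in KO#2. The knockout means were higher (5142 ± 1817 and 4152 ± 1133 against 2893 ± 956, SD, n = 3), and the highest control library lay within both knockout ranges. Log2 fold changes were 0.82 for KO#1 and 0.54 for KO#2, each with an SE of 0.368, and 0.72 for KO#2 with KO#2 replicate 1 left out. In GENCODE 29, 17.7% of the exon bases of NQO1 are shared with a non-coding gene on the opposite strand.

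The AKR1C genes lie in a cluster on chromosome 10 and encode hydroxysteroid dehydrogenases. AKR1C1 inactivates progesterone, AKR1C2 inactivates dihydrotestosterone, and AKR1C3 makes testosterone and prostaglandin F. The 250 bases before their first RefSeq starts are shown because AKR1C1 and AKR1C2 are nearly identical there, while AKR1C3 is not. They are chr10:4963165-4963414 (plus strand) for AKR1C1, chr10:5003858-5004107 (minus strand) for AKR1C2 and chr10:5048531-5048780 (plus strand) for AKR1C3, all of GRCh38.p14. Capitals in AKR1C2 and AKR1C3 mark bases that differ from AKR1C1, or are absent from it, where the windows align.
AKR1C1: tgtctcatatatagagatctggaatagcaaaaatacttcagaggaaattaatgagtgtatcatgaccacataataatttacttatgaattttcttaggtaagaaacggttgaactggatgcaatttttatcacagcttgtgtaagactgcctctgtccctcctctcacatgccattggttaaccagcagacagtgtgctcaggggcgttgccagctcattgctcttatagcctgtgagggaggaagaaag
AKR1C2: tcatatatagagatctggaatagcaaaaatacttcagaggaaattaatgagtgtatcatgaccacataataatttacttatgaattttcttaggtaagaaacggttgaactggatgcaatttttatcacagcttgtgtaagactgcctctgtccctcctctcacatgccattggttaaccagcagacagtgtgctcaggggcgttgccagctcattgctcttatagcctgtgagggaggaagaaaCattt
AKR1C3: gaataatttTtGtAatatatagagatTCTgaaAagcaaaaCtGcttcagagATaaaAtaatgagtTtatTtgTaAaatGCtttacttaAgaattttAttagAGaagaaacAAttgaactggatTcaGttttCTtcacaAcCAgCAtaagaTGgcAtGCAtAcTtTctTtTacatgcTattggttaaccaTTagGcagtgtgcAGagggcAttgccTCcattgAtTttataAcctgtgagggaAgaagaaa
AKR1C2 was identical to AKR1C1 at 245 of 246 aligned bases (99.6%), and AKR1C3 at 185 of 241 (76.8%). In GENCODE 29, 56.1% of the 36-base words of AKR1C2 transcripts and 31.7% of those of AKR1C1 also occur in transcripts of another gene on the same strand, mostly in each other, against 12.7% for AKR1C3. The authors' counting may therefore have split or dropped reads of AKR1C1 and AKR1C2, and their levels are uncertain.

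AKR1C3 had the highest level per kilobase of the 3 genes in sgControl. Signals were 174, 52.7 and 213 for sgControl, 67.8, 45.8 and 55.2 for KO#1, then 55.9, 22.8 and 21.1 for KO#2. The sgControl replicates 1 and 3 were high, while sgControl replicate 2 lay among the knockout libraries, so the groups overlap. For KO#2 the overlap rests on KO#2 replicate 1 (55.9, from 10 reads), and the other KO#2 libraries lay under every control. Reads were 137, 71 and 189, then 80, 53 and 82, and 10, 17 and 28. The log2 scale gave −1.16 for KO#1 and −2.02 for KO#2, each with an SE of 0.586; leaving out KO#2 replicate 1 gave −2.46 (SE 0.522). KO#2 and KO#1 differed by −0.87 (95% interval −2.16 to 0.43, limma adjusted p = 0.748).

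AKR1C1 signals were 4.44, 5.22 and 7.33 for sgControl, 9.33, 9.0 and 7.89 for KO#1, then 6.11, 14.2 and 11.2 for KO#2, from 2 to 15 reads a library. Summed reads divided by depth gave 1.63 times sgControl in KO#1 (0.89 to 3.11) and 2.29 times in KO#2 (1.21 to 4.46), with counting error alone covered. All KO#1 libraries lay above the controls, as in 18.2% of tested genes, and so did the KO#2 libraries other than KO#2 replicate 1. AKR1C2 had 3 reads in sgControl replicate 3, 1 read each in KO#1 replicate 1 and KO#2 replicate 2, and 0 elsewhere, so no level can be given.

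AKR1B10 reduces retinal and lipid aldehydes and is an NRF2 target in several carcinomas. Signals were 0.778, 2.89 and 2.22 for sgControl, 17.6, 12.3 and 4.44 for KO#1, then 0, 2.33 and 5.0 for KO#2. The KO#1 values were all above the controls, as in 18.2% of tested genes, and KO#2 overlapped them. Reads summed to 7 in sgControl, 44 in KO#1 and 9 in KO#2. Divided by depth, KO#1 stood at 4.98 times sgControl (exact 95% interval 2.23 to 13.1) and KO#2 at 1.79 times (0.593 to 5.65), with counting error alone covered. Of its 36-base words, 28.9% occur in another gene, chiefly the neighbouring copy AKR1B15.

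In all, 7 of the 10 members had a mean signal of at least 10 over the 9 libraries and were fitted with all other genes, while AKR1B10, AKR1C1 and AKR1C2 fell under that limit. CBR1 passed it through the sgControl group alone, and CBR3 through the sgControl and KO#1 groups. At a limma adjusted p under 0.05, 1 of the 7 was called with KO#1 and 1 with KO#2, CBR1 in each case, where 2.33% and 2.04% of all tested genes were called. Median log2 fold changes of the 7, CBR1 among them, were −0.45 and −0.70, where those of all tested genes were 0.03 and −0.01. The group was selected on CBR1, so nothing is read from these medians. Without KO#2 replicate 1, CBR3 and AKR1C3 joined CBR1 among those called with KO#2, where 8.02% of all genes were called, and CBR1 was the 1 called with KO#1, where 12.3% were. The comparisons share the sgControl libraries.

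CBR1 was chosen for its level in both knockout groups, so KO#2 was compared with KO#1 for the other 6 tested members. The rule of choice did not name that contrast, but earlier results of these data were known, so the comparison is a description. In it 0 of the 6 were called. Of all 12985 tested genes 0 (0%) were called by limma, and 529 had an unadjusted p under 0.05. For AKR1B1 the interval of the log2 difference ran from −0.88 to 0.57, for NQO1 from −1.10 to 0.53, for AKR1A1 from −0.32 to 1.33 and for CBR4 from −1.32 to 0.87 (95%, before adjustment; limma adjusted p from 0.748 to 0.867). Differences within those bounds remain possible. Larger ones could also miss the test over all genes, as did CBR3 at −2.70 (limma adjusted p = 0.748). Leaving out KO#2 replicate 1, 13 genes (0.1%) were called, none of them a member.

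**Figure D4:**
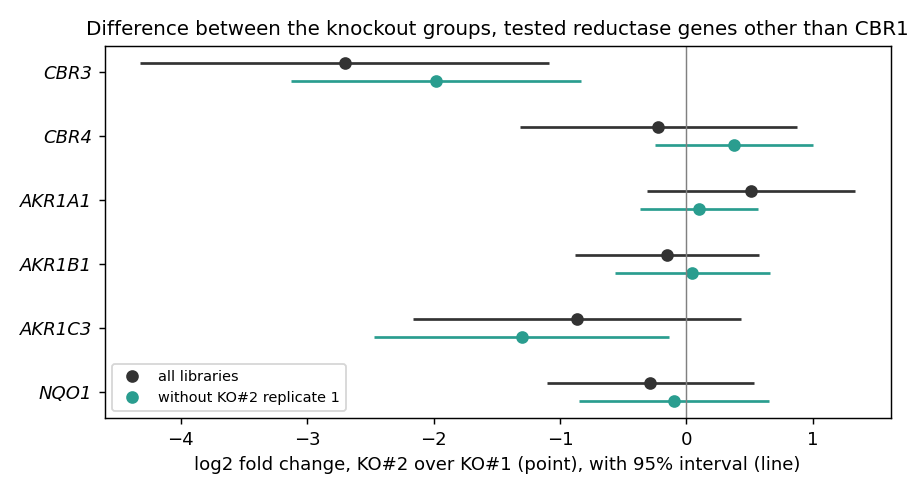
Log2 fold change of KO#2 over KO#1 with its 95% interval before adjustment, for the 6 tested reductase genes other than CBR1, with all libraries and without KO#2 replicate 1. CBR3 lies farthest from 0, at −2.70 and −1.98, and no member passed the test over all genes.

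Other genes around these enzymes were taken from 6 lists. Of 41 further reductases 30 were tested and 0 were called with either guide by limma at an adjusted p under 0.05. Of all tested genes 2.33% were called with KO#1 and 2.04% with KO#2 in the fit of all libraries. These shares stand behind the counts of the fit of all libraries in each list. The lists are short, so nothing is read from a count of 0. DCXR, which reduces L-xylulose and dicarbonyls, had signals of 123, 81.9 and 87.9 for sgControl, 225, 174 and 183 for KO#1, then 622, 251 and 228 for KO#2. Every knockout library was above every control, as in 6.61% of tested genes. The log2 fold changes of DCXR were 1.00 (limma adjusted p = 0.39) and 1.77 (limma adjusted p = 0.068), the latter 1.31 without KO#2 replicate 1. RDH13, a retinol dehydrogenase of mitochondria, had 0.01 and 1.36 (adjusted p = 1.00 and 0.29), the latter 0.76 without KO#2 replicate 1. The list's medians were −0.04 and 0.05. Without KO#2 replicate 1, DCXR and HSD17B12 rose and SRD5A1 fell with both guides, and POR and SPR fell with KO#1. That is 5 of 30 called with KO#1 and 3 of 30 with KO#2, in a fit that called 12.3% and 8.02% of all tested genes, and the same shares stand behind the calls of that fit in the lists that follow.

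Of 29 NRF2 targets 27 were tested and 0 were called with either guide (limma), with 17 above and 10 below 0 for KO#1 and 11 above and 16 below for KO#2, and medians of 0.09 and −0.16. SLC7A11, the cystine transporter, had 0.65 and 1.23 (adjusted p = 0.773 and 0.286), and EPHX1, the microsomal epoxide hydrolase, had −1.24 and −0.38 (0.337 and 0.741), the latter −0.97 without KO#2 replicate 1. With KO#2 replicate 1 left out, SLC7A11 rose with KO#2 (1.76, adjusted p = 0.01), and EPHX1 and UGDH fell with KO#1.

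Among 15 tested regulators of NRF2 and AHR, 0 were called with either guide (limma), and the medians were 0.08 and −0.23. NFE2L2, which encodes NRF2, had signals of 3765, 3105 and 3847 for sgControl, 1517, 1851 and 1932 for KO#1, then 301, 2547 and 1862 for KO#2. All knockout libraries were below all controls, as in 5.9% of tested genes, and the lowest was KO#2 replicate 1. The log2 fold changes were −1.02 (adjusted p = 0.693) and −1.66 (0.289), and the KO#2 value was −0.71 with KO#2 replicate 1 left out. AHR, the dioxin receptor, had −0.27 and −1.22 (adjusted p = 0.987 and 0.306), the latter −0.57 with that library left out. Without KO#2 replicate 1, NFE2L2 (adjusted p = 0.00819) and its inhibitor KEAP1 (0.0153) fell and NFE2L3 rose with KO#1, and 0 of the 15 were called with KO#2.

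Aldehyde dehydrogenases oxidize the aldehydes that these reductases reduce. Of 16 tested, ALDH1A1, a retinal dehydrogenase, fell with each guide, and ALDH1A3, another, rose with KO#1 (limma). ALDH1A1 went from 4906 ± 745 in sgControl to 768 ± 137 in KO#1 and 877 ± 593 in KO#2 (SD, n = 3; adjusted p = 0.0196 and 0.0186). Its log2 fold changes were −2.68 and −2.75, the latter −2.12 without KO#2 replicate 1. ALDH1A3 went from 214 ± 28.1 to 773 ± 358 in KO#1 (log2 fold change 1.74, adjusted p = 0.0447) and had 345 ± 31.9 in KO#2 (0.69, adjusted p = 0.467, or 0.76 without KO#2 replicate 1). These calls were lost when single libraries were left out. Without any 1 of the sgControl libraries 0 of the 16 were called, with adjusted p of 0.0736 to 0.108 for ALDH1A1. ALDH1A1 with KO#1 held in 10 of 16 alternatives and also missed the test without any 1 of the KO#1 libraries (0.0794 to 0.0989). With KO#2 it held in 11 of 16 and also missed it with array weights (0.0848) and when only the groups compared were fitted (0.0885). ALDH1A3 with KO#1 held in 8 of 16, and also missed it without KO#1 replicate 1, KO#1 replicate 3 or KO#2 replicate 3, with a minimum mean of 50 and without a variance trend (0.0594 to 0.234). The difference of ALDH1A3 between the knockout groups was −1.05 and did not pass (adjusted p = 0.748). The list's medians were −0.07 and 0.02. In the fit without KO#2 replicate 1, ALDH7A1 also rose with both guides and ALDH1L2 with KO#2, and ALDH1A3 again rose with KO#1. ALDH1L2 passed the minimum mean of 10 through the knockout groups alone (sgControl mean 6.48), so its call is a description.

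Of 15 tested enzymes of prostaglandin and steroid metabolism, PLA2G4A, the phospholipase that frees arachidonic acid, rose with each guide (log2 fold change 4.04 and 2.89, limma adjusted p = 0.00438 and 0.0268), from 2.56, 7.56 and 12.7 in sgControl to at least 32.2 in every knockout library. The KO#1 call held in all 16 alternatives, and the KO#2 call in 6 of 16; leaving out any KO#1 library, sgControl replicates 1 and 2 or KO#2 replicates 2 and 3 in turn ended it, as did array weights, a minimum mean of 50 and a fit of only the groups compared (adjusted p from 0.0515 to 0.29). Without KO#2 replicate 1 its log2 fold change was 3.25. PLA2G4A passed the minimum mean of 10 through the knockout groups alone (sgControl mean 7.59), so its calls are a description. The list's medians were −0.03 and −0.15. Of 10 tested genes of the polyol pathway and sugar aldehyde repair, FN3K, which removes fructosamines from proteins, rose with KO#2. It had 6.11, 12.7 and 1.00 in sgControl, 59.3, 60.9 and 79.9 in KO#1 and 408, 45.9 and 75.3 in KO#2. All knockout libraries were above the controls, as in 6.61% of tested genes (log2 fold change 3.53 and 4.29, limma adjusted p = 0.0708 and 0.0308). The FN3K call with KO#2 held in 7 of 16 alternatives; leaving out any KO#1 library, sgControl replicates 1 and 3 or KO#2 replicate 3 in turn ended it, as did the same 3 other settings (adjusted p from 0.0541 to 0.275). Its log2 fold change was 3.37 without KO#2 replicate 1. FN3K too passed the minimum mean of 10 through the knockout groups alone (sgControl mean 6.59), so its calls are a description. The polyol medians were −0.19 and 0.04. Without KO#2 replicate 1, CYP1A1 rose with both guides, HSD3B7 and UGT2B7 fell with KO#1, CYP1B1 fell with KO#2, FN3K rose with KO#1 as well (adjusted p = 0.00515), and SLC6A6, a taurine transporter, fell with both.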

How the data were processed

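RNA from 9 libraries of ACHN cells was sequenced as directional paired ends on a NextSeq500, per the labels' protocols. The deposited signal is total read counts per gene that the authors quantile-normalized, per the name of the table; no label or header names the aligner, counter or strand setting. A mouse build, mm10, stands in the submitters' processing notes although gene names are human, so only RefSeq windows (GRCh38.p14) carry coordinates. No sample column was left unused (0), and 0 library pairs were identical.

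Features with a mean signal of at least 10 were fitted as log2(signal + 1) with limma 3.58.1 (R 4.3.3) in 1 model of 3 groups, with a variance trend and two-sided tests, Benjamini-Hochberg adjusted over 12985 features. Fold changes are log2(signal + 1) differences and so understate changes of low genes. Reads behind low values came from the order of equal values; depth was the reads at a signal of 100. That reading, the summed-read ratios and the floor of 3 reads were chosen after seeing the data. Reads and fit were tested on simulated data. Members and lists were chosen with earlier results of these data known. The text names all members, ELOVL5, up to 4 called genes of each list by size (else the 2 largest), neighbours of CBR1 and its 5 closest genes, of which 1 is not reported here; genes that pass without KO#2 replicate 1 were added after their values were seen. Promoters came from RefSeq, and words and exon lengths from GENCODE 29. Alternatives were the pseudocount, the filter, the samples fitted, weights, the trend and each library left out.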

Additional observations from a re-analysis of the deposited data

How the results depend on the processing

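With a minimum mean of 50 CBR1 was not tested, so that 0 members were called with either guide. No paired analysis was possible because the labels give no replicate numbers, and those used here follow the order of deposit. With array weights 2 members were called with KO#1, AKR1C3 being added, in a fit that called 27% of all tested genes with either guide. Leaving out 1 library in turn gave 1 to 3 members with KO#2: 3 without KO#2 replicate 1, and 2 (CBR1 and CBR3) without KO#2 replicate 2. Those fits called 14.1% and 4.2% of all tested genes with either guide. Between the knockout groups the sign turned without KO#2 replicate 1 for CBR4 (0.377, range over left-out libraries −0.648 to 0.377) and AKR1B1 (0.0446, −0.44 to 0.0446), and with array weights for AKR1B1 (0.25); none of these passed the test. RDH13 with KO#1, near 0, turned to −0.0253, −0.116 and −0.144 without sgControl replicate 2, sgControl replicate 3 and KO#1 replicate 2 (range −0.144 to 0.178).

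Genes called with either guide numbered 0 further reductases, 0 NRF2 targets, 0 regulators, 2 aldehyde dehydrogenases, 1 prostaglandin or steroid enzyme and 1 polyol gene. In this order they were 7, 3, 6, 7, 8 and 5 with array weights and, aldehyde dehydrogenases apart, 5, 2, 3, 5 and 2 when only the groups compared were fitted. Of all tested genes 3% were called with either guide, 27% with array weights and 14.5% in the fit of only the groups compared. Leaving out 1 library gave 0 to 5, 0 to 3, 0 to 3, 0 to 4, 1 to 5 and 0 to 2, each highest without KO#2 replicate 1, where 14.1% of all genes were called. The aldehyde dehydrogenases were 1 with a minimum mean of 50 or without a variance trend, and the polyol genes 0 with a minimum mean of 50. The causes were not tested. Depth limits AKR1B10, AKR1C1 and AKR1C2, and KO#2 replicate 1 throughout.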
